A study of Mus musculus with 12 samples.

Results

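The genes described here are 27 G protein-coupled receptor genes, chosen by name alone from the 5764 genes of a table of CPM values (read counts scaled so that every column has the same total). They comprise 19 genes named Gpr with a number, most of them orphan receptors or receptors whose ligand was found late, and 8 adhesion receptor genes named Adgr. One pigment cell receptor gene and noncoding genes of opposite strand were left out. The RefSeq annotation of the mouse holds 101 coding genes under the same naming rule, 27 of them adhesion genes. All 27 genes of the table matched it, and the others are not analysed here. RNA was pulled down with tagged ribosomes from arcuate-enriched hypothalamus of POMCRiboTag mice, in which neurons of the pro-opiomelanocortin (POMC) lineage carry a ribosomal protein with an HA tag. All mice of both groups had fasted for 16 h, had habituated to the room for 1 h, and were housed in pairs or triplets. In the NEO group a nonedible wooden object in a mesh cage was presented, and in the SENS group caged chow that could be seen and smelled but not eaten. The exposure lasted 10 min, around zeitgeber time 6 h, and each group had 6 libraries. Strain, sex, age and the driver of the tag beyond the name POMC are not given in the labels. Nothing in the labels ties a library to 1 mouse. The p-values therefore reflect the spread among these libraries alone, part of which may be technical.

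G protein-coupled receptors span the membrane with a bundle of helices and pass a signal from outside the cell to heterotrimeric G proteins, to arrestins, or to both. Receptors named Gpr received a number before a ligand was known. Some have since been paired with lipids, protons, zinc, amino acids or peptides. Adhesion receptors carry a long extracellular part. In many of them, though not all, it is cut from the membrane part near a tethered peptide, and this peptide can act as the agonist. POMC neurons of the arcuate nucleus suppress appetite and respond to many ligands through such receptors.

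The table held few reads for these receptors. Each library had 6901 to 18299 reads in the genes of the table, and 1 read equalled 54.6 to 145 CPM. These totals cover the genes of this table only, and the depth of the libraries is unknown. A value of 0 in a library allowed a level of up to 3 reads, between 164 and 435 CPM. Pooled over the 6 libraries, the limit of 3 reads was 58.8 CPM in NEO (51054 reads) and 38.2 CPM in SENS (78624 reads). Such limits cover counting error only, since the reads carried no molecular identifiers. None of the 6 listed POMC neuron markers had a row in the table, so the labelled cell type could not be checked against them. All 12 libraries are pull-downs from tagged mice, so carry-over of RNA from other cells cannot be told apart from the neurons' own RNA. Fewer cells of a type and less RNA per cell cannot be told apart either.

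Together the 27 genes had 661 reads, 0.510% of the reads in the table. Of the 27, 4 were at 0 in all 12 libraries (Adgrg3, Adgrf1, Adgre4 and Gpr15), against 621 of all 5764 genes (10.8%). Of the 23 others, 8 were above 0 in 1 library, 6 in 2 to 4 libraries, 6 in 5 to 8 and 3 in at least 9. The median gene of the group had 10 reads over all libraries, and the median gene of the table had 9. CPM values are not divided by transcript length, so levels are compared here between libraries and not between genes.

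**Figure D1:**
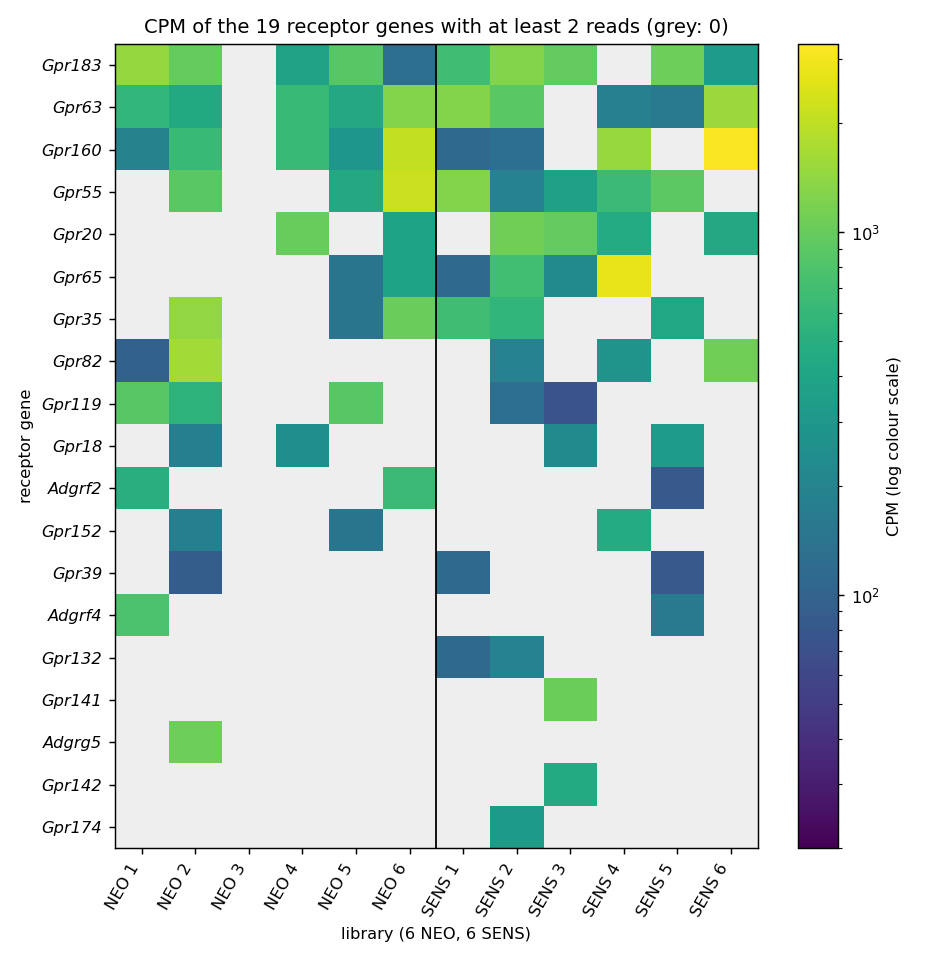
CPM (log colour scale, grey for 0) of the 19 receptor genes with at least 2 reads (rows, ordered by the number of libraries above 0) in the 6 NEO and 6 SENS libraries (columns). Gpr183 and Gpr63 were above 0 in 10 libraries each, and NEO 3 was at 0 for every gene shown.

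One library stood apart. In NEO 3 all 27 receptor genes were at 0, although 1626 of all genes (28.2%) were above 0 there. Its reads in the table numbered 7151, more than the 6901 of NEO 5, where 9 of the receptor genes were above 0. The other NEO libraries had between 5 and 11 receptor genes above 0 and the SENS libraries between 5 and 11. NEO averaged 6.67 ± 3.83 genes and SENS 8.33 ± 2.07 (SD, n = 6 each), a difference of 1.67 genes, and 0.333 genes without NEO 3. With every library brought to 6000 reads, the expected numbers were 6.27 ± 3.54 and 7.13 ± 1.46. As a share, 24.7% of the receptor genes were above 0 in the average NEO library and 30.9% in the average SENS library, against 32.9% and 37.1% of all genes. The receptor share lay below that of all genes in 10 of 12 libraries. SENS 6 had the most reads in the table and, with NEO 4, the fewest receptor genes above 0 apart from NEO 3. These libraries also had the lowest shares of all genes above 0, 27.6% in SENS 6 and 24.6% in NEO 4.

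**Figure D2:**
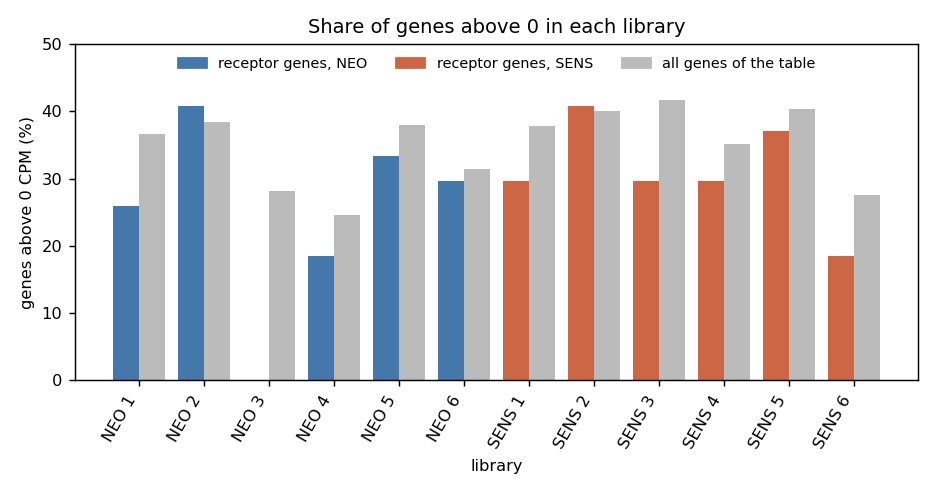
Percentage of genes above 0 CPM in each library, for the 27 receptor genes (blue NEO, orange SENS) and for all 5764 genes (grey). The receptor share reached 40.7% in NEO 2 and SENS 2 and was 0 in NEO 3, where 28.2% of all genes were above 0.

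The summed CPM of the 27 genes ran from 0 (NEO 3) through a median of 3986 to 8134 in NEO, and from 3405 through 5059 to 6612 in SENS. The groups overlapped. NEO had a mean of 4517 ± 3157 CPM and SENS one of 5139.8 ± 1276 CPM (SD, n = 6 each), a difference of 622 CPM that lies within the spread of either group and became −281 CPM without NEO 3. The labels carry library numbers in 3 ranges, whose meaning they do not give. The difference was 1805 CPM among the 6 libraries numbered 1062 to 1074, −797 CPM among the 4 numbered 1103 to 1116, and −86.5 CPM between the single libraries numbered 1046 and 1050.

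Gpr183, Gpr63 and Gpr160 were above 0 in at least 9 libraries and held 290 reads, 43.9% of the reads of the group. Gpr183 (chromosome 14, 121952331 to 121965193, GRCm38) encodes the oxysterol receptor EBI2, which guides B cells, T cells and dendritic cells. In NEO its CPM ran from 0 through a median of 625 to 1466, and in SENS from 0 through 835 to 1283. NEO 3 and SENS 4 were at 0, NEO 1 was highest, and the groups overlapped over nearly their whole range. The 36 NEO reads gave a mean of 639 ± 565 CPM and the 58 SENS reads 727 ± 487 CPM (SD, n = 6 each). Its log2 fold change of 0.38 turned to −1.14 without NEO 3.

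Gpr63 (chromosome 4, 24966054 to 25009238) encodes an orphan receptor of the brain. Its CPM in NEO was lowest in NEO 3 at 0, had a median of 518 and was highest in NEO 6 at 1291. In SENS it was 0 in SENS 3, with a median of 542 and a highest value of 1530.1 in SENS 6. Both groups thus held 1 library at 0, and their ranges overlapped. The means were 566 ± 420.1 CPM (29 reads) and 676 ± 647 CPM (57 reads; SD, n = 6 each). Without SENS 6 the SENS libraries held 29 reads and a mean of 505 CPM, below the NEO mean.

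Gpr160 (chromosome 3, 30855759 to 30897194) encodes an orphan receptor that has been proposed, and disputed, as a receptor of CART peptides, which POMC neurons make. In NEO its CPM ran from 0 through 459 to 2066, and in SENS from 0 through 122 to 3224. In SENS, 4 of 6 libraries lay between 0 and 128 CPM while SENS 4 had 1490 CPM and SENS 6 3224 CPM. SENS 6 held 59 of the 110 reads of the gene (53.6%). NEO averaged 636 ± 743 CPM and SENS 826 ± 1307 CPM (SD, n = 6 each), and the SENS mean was 347 CPM without SENS 6. The log2 fold change was −1.56, opposite in sign to the difference of the mean CPM. It was −0.35 without SENS 3 or SENS 5 and −3.07 without NEO 3.

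The promoters of Gpr160 and Gpr183 are shown because, of the receptors above 0 in at least 9 libraries, only these have 1 start in the RefSeq table. Their CG dinucleotides are marked, a feature the choice of the genes did not use. Each window holds 250 bases before to 50 after the start listed for the gene, from RefSeq (GRCm38.p6). It runs 5′ to 3′ on the strand of the gene, with CG in capitals. For Gpr160 the listed start lies inside the gene span given above, so part of the 250 bases before it lies in that span too. Gpr160 lies on the + strand (chr3:30855700-30855999, 26 CG) and Gpr183 on the − strand (chr14:121965144-121965443, 4 CG).
Gpr160: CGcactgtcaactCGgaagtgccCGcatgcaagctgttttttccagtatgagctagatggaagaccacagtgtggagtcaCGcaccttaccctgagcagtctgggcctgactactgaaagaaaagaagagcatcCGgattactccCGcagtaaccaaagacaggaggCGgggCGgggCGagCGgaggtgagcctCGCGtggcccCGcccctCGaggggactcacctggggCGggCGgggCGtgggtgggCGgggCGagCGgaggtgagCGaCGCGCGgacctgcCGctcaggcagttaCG
Gpr183: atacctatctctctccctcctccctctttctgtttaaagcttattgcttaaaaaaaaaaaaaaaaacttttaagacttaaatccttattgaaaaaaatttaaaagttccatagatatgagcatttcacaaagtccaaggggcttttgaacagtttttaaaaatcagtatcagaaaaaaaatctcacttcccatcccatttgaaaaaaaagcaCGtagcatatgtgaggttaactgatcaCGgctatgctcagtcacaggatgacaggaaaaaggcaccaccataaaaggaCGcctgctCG
CG reads the same on both strands. Of the 27 windows found for 23 of the receptor genes, 2 (7.41%) held at least 10 CG, 1 of Gpr160 and 1 of the 3 windows of Gpr63. Among all 32851 windows of the table of promoters 43.5% did. The median was 4 CG for the receptor genes and 7 CG for all. No measurement here bears on these promoters directly.

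Several of the receptors are known or proposed to bind lipids or small metabolites. Gpr55 (chromosome 1, 85933221 to 85991583), a receptor for lysophosphatidylinositol that also responds to some cannabinoids, was above 0 in 3 NEO and 5 SENS libraries. Its CPM ran from 0 through 217 to 2195 in NEO and from 0 through 513 to 1276 in SENS, and NEO 6 was highest of all 12. Mean CPM hardly differed, at 588 ± 865 (30 reads) and 568 ± 475 (37 reads; SD, n = 6 each), while the log2 fold change was 2.66, with 3 NEO libraries and 1 SENS library at 0. Without NEO 6 the NEO mean was 266 CPM.

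Gpr119 (chromosome X, 48667979 to 48674478) encodes a receptor for oleoylethanolamide and related lipids that promotes the release of gut incretins and insulin. In NEO it had 879 CPM in NEO 1, 539 in NEO 2 and 869 in NEO 5, and the other 3 libraries were at 0. In SENS it had 128 CPM in SENS 2 and 75 CPM in SENS 3, and the other 4 were at 0. The 3 NEO libraries above 0 all exceeded every SENS library, but 3 NEO libraries at 0 lay with the lower SENS values. NEO held 21 of 51054 reads and SENS 3 of 78624, a pooled ratio of 10.8 NEO over SENS (95% interval 3.22 to 56.4, exact, from the counts alone). The interval leaves out the spread between libraries. Over libraries the means were 381 ± 435 and 33.9 ± 55.1 CPM (SD, n = 6 each). The limma log2 fold change was −2.56 (SE 2.72, adjusted p = 0.745). The mean was lower in SENS in each of the 3 ranges of label numbers, with differences of −879 CPM, −112 CPM and −435 CPM. Of all receptors in the group it had the smallest p in an exact permutation test of the mean CPM, two-sided, 0.182 (adjusted over all genes, 1).

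Gpr35 (chromosome 1, 92948052 to 92986391), a receptor of gut and immune cells for which kynurenic acid is a proposed ligand, was above 0 in 3 libraries of each group. NEO values were 1436 CPM in NEO 2, 1033 in NEO 6 and 145 in NEO 5. In SENS it had 696 CPM in SENS 1, 577 in SENS 2 and 415 in SENS 5. The means were 436 ± 634 and 281 ± 321 CPM (SD, n = 6 each), and the groups overlapped.

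Of the receptors known from immune cells, Gpr18, Gpr174 and Gpr31b had few reads. Gpr18, a lymphoid receptor, had 11 reads, 4 of them NEO and 7 SENS, in 2 libraries of each group. It lies next to Gpr183 on chromosome 14 (121911434 to 121915888), and both were above 0 in NEO 2, NEO 4, SENS 3 and SENS 5. Gpr183 was above 0 in 10 of the 12 libraries, so this overlap shows little. Gpr174, a lysophosphatidylserine receptor of lymphocytes, had 5 reads, all in SENS 2. Pooled, this came to 1.08 times the limit set by 3 reads in NEO, so the 0 in NEO shows little. Gpr31b, a receptor for 12-HETE, had 0.25 reads in SENS 4. A fraction of this kind arises when counting shares a read among several places, and Gpr31b has close copies, so its value is uncertain.

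Proton-sensing receptors detect acidity outside the cell and are common on immune cells. Gpr65 (chromosome 12, 98268635 to 98276722) was at 0 in 4 NEO libraries and had 145 CPM in NEO 5 and 387 in NEO 6. In SENS it had 2794 CPM in SENS 4, 706 in SENS 2, 225 in SENS 3 and 116 in SENS 1, with SENS 5 and SENS 6 at 0. NEO averaged 88.7 ± 157 CPM (4 reads) and SENS 640.0 ± 1087 CPM (45 reads; SD, n = 6 each), 7.21-fold higher in SENS. SENS 4 held 30 of the 49 reads, and without it the SENS mean was 209 CPM. The difference did not pass (log2 fold change 3.30, SE 2.79, limma adjusted p = 0.745). It was 1241 CPM higher in SENS in the label range 1062 to 1074 and 266 CPM lower in SENS in the range 1103 to 1116. Gpr132, related to Gpr65 and linked to oxidised lipids, had 4 reads, all SENS and 3 of them from SENS 2. Pooled, this came to 0.866 times the limit in NEO, so no fold is given.

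**Figure D3:**
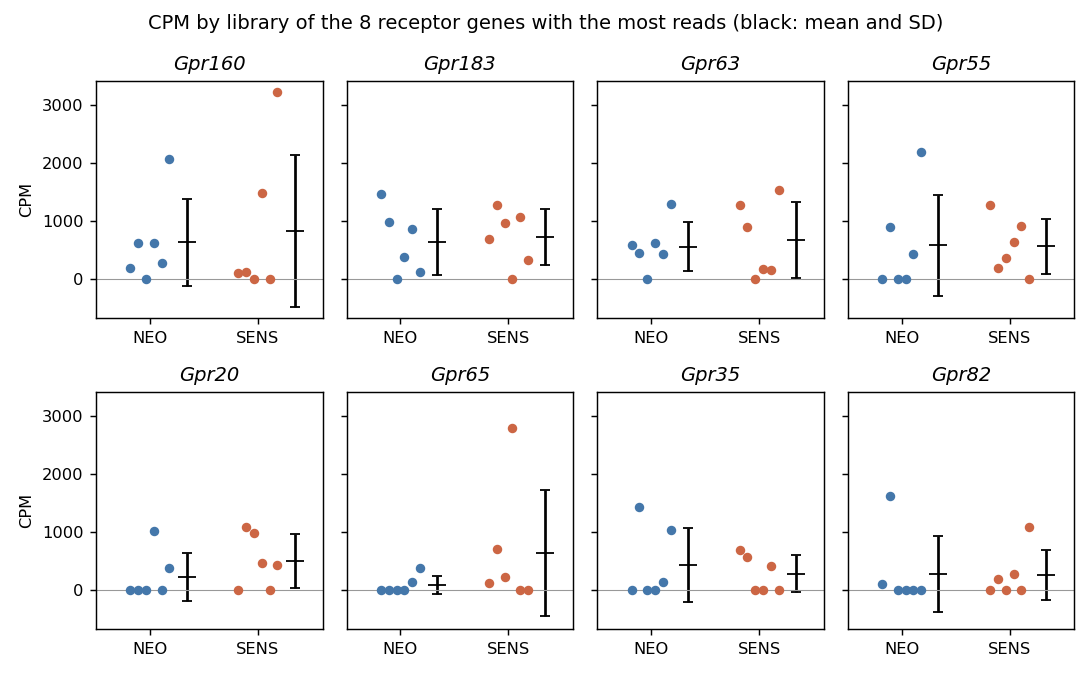
CPM in each library (points, in the order of replicate numbers) for the 8 receptor genes with the most reads, with the mean and SD of each group (n = 6) in black. The NEO and SENS points overlapped for all 8 genes, and single libraries such as SENS 6 for Gpr160 (3224 CPM) and SENS 4 for Gpr65 (2794 CPM) lay far above the rest.

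Among orphan receptors without an accepted ligand, Gpr20 (chromosome 15, 73688497 to 73707505) was above 0 in 2 NEO and 4 SENS libraries. NEO 4 had 1015 CPM and NEO 6 387 CPM, while SENS 2, 3, 4 and 6 lay between 437 and 1090.5 CPM. The means were 234 ± 413 and 495 ± 465 CPM (SD, n = 6 each; 11 and 43 reads), 2.12-fold higher in SENS. This was within the spread (log2 fold change 3.18, SE 2.76, limma adjusted p = 0.745). Gpr82 (chromosome X, 13646134 to 13667433) reached 1616 CPM in NEO 2 and, in SENS 6, 1093 CPM, while 4 NEO and 3 SENS libraries were at 0. Those 2 libraries held 18 and 20 of its 45 reads, and the means were 286 ± 653 and 261 ± 425 CPM (SD, n = 6 each).

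Of 2 further orphan receptors, Gpr141 was above 0 in 1 library and Gpr152 in 3. Gpr141 (chromosome 13, 19749680 to 19824336) had 14 reads, all in SENS 3 (1049.6 CPM), a pooled SENS level at least 3.03-fold higher than the NEO limit by counts alone. All of this rests on SENS 3. For Gpr152, 2 NEO libraries held 3 reads and SENS 4 held 5, a pooled ratio of 1.08 SENS over NEO (95% interval 0.211 to 6.97, exact, from the counts alone).

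Receptors with an amino acid, metal or protein ligand were at the limit of detection. Gpr142, which responds to aromatic amino acids in pancreatic islets, had 6 reads, all in SENS 3, which pooled over SENS came to 1.30 times the limit in NEO. The zinc receptor gene Gpr39 had 3 reads, 1 of them NEO and 2 SENS, each in a different library. Gpr15, which homes T cells to the colon, had no read in 51054 NEO and 78624 SENS reads.

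The 8 adhesion receptor genes belong to subgroups E, F and G. Their 35 reads were 31 NEO and 4 SENS reads, and SENS 5 held all 4 of the latter. By library the summed CPM ran from 0 through a median of 395 to 1270.4 in NEO and was 0 in 5 of 6 SENS libraries and 332 CPM in SENS 5. NEO 3 and NEO 4 were at 0 as well, so the groups overlapped. On average NEO had 523 ± 561 CPM and SENS 55.4 ± 136 CPM (SD, n = 6 each). These sums get no test, since they were looked at with the values known.

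Adgrf2 and Adgrf4 lie beside each other on chromosome 17 (42694028 to 42743753 and 42656208 to 42697569), and their gene spans overlap, so reads there could belong to either. Both are adhesion receptors known from epithelia. For Adgrf2 there were 5 reads in NEO 1, 5 in NEO 6 and 1 in SENS 5, a pooled ratio of 15.4 NEO over SENS (95% interval 2.19 to 668, exact, from the counts alone). Adgrf4 showed 8 reads in NEO 1 and 2 in SENS 5, a pooled ratio of 6.16 (95% interval 1.23 to 59.5, same method). NEO 1 and SENS 5 were thus above 0 for both genes. Neither gene passed. By limma, Adgrf2 had a log2 fold change of −1.98 (SE 2.13, adjusted p = 0.745) and Adgrf4 one of −0.37 (SE 1.77, adjusted p = 0.985). That of Adgrf2 was −0.72 without NEO 6, −0.80 without NEO 1 and −3.05 without SENS 5. Without NEO 1 the log2 fold change of Adgrf4 turned to 1.23.

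Adgrg5 (chromosome 8, 94921811 to 94943293), a receptor of leukocytes, had 12 reads, all in NEO 2 (1077 CPM), and none in SENS. Its pooled NEO level was 6.16 times the SENS limit of 3 reads, with the counting error of its own reads left out. Without NEO 2 it had no read at all. Adgrg4, known from gut endocrine cells, had 1 read in NEO 5, and Adgrg7, known from the intestine, 1 read in SENS 5. The granulocyte receptor gene Adgrg3, the macrophage gene Adgre4 and Adgrf1 had no reads.

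The comparison of SENS with NEO asked whether sensing food without eating it went with a change in any of these transcripts. None passed: limma called 0 of the 23 receptor genes tested at an adjusted p under 0.05, against 0 of all 5141 genes tested (0%). At an unadjusted p under 0.05 it was 0 of 23, against 189 of 5141 genes (3.68%). The exact permutation test of mean CPM also gave 0 of 23 at an unadjusted p under 0.05, against 129 of 5141 genes (2.51%). The smallest limma p among the receptors was 0.134 (Gpr132, adjusted p = 0.745), and for none of the 23 were the 2 groups without overlap, against 5 of 5141 genes (0.0973%). A result that misses the threshold does not show equal levels. The SE of the log2 fold change had a median of 1.77 among the receptors and of 1.82 over all genes.

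In direction, 14 of the 23 had a log2 fold change above 0 (60.9%) and 9 below, against 57.0% above 0 among all genes. The medians were 0.77 and 0.39. The receptor median turned to −0.026 without SENS 5 and was 0.08 with a pseudocount of 200. Among genes with more than 3 reads in a group, taking those at 0 in the other group at the limit of 3 reads, the median was 0.03 for 18 receptors and 0.11 for 3619 genes. Among the 13 of these receptors that had reads in both groups, 6 had a log2 fold change above 0 and 7 below (median −0.06), and for 3014 such genes of the table the median was 0.09. For 5 receptors (Gpr63, Gpr152, Gpr160, Gpr82 and Gpr55) the difference of mean CPM had the opposite sign to the log2 fold change.

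**Figure D4:**
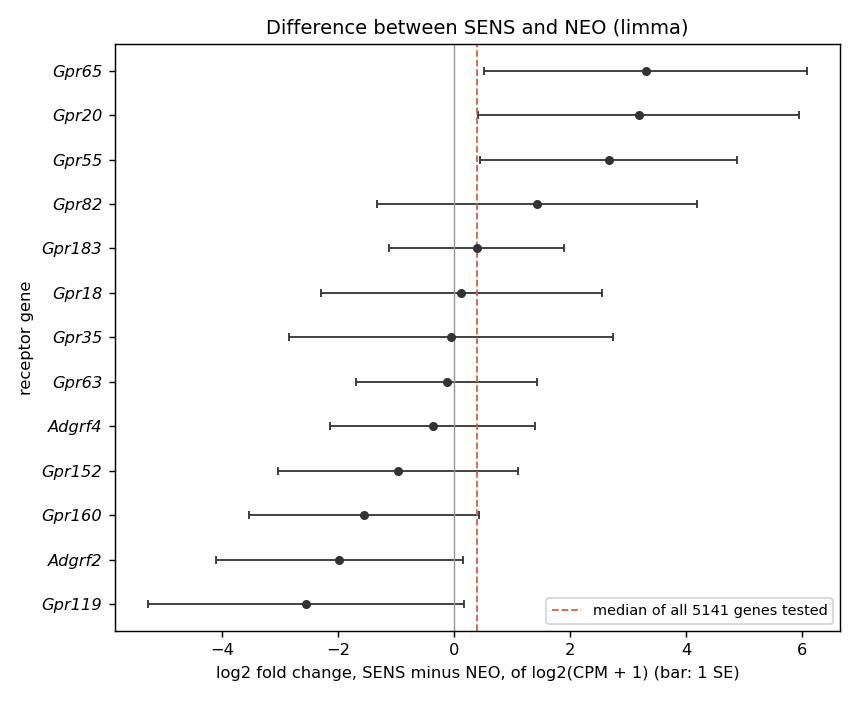
Log2 fold change of log2(CPM + 1), SENS minus NEO, with 1 SE (limma), for the 13 receptor genes with reads in both groups and more than 3 reads in 1 of them; the dashed line is the median of all 5141 genes tested (0.39). The line includes genes at 0 in 1 group. For the 3014 genes that met the same condition as the receptors shown, the median was 0.09. Values ran from −2.56 (Gpr119) to 3.30 (Gpr65), and none passed the test.

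Reads of a gene were often gathered in 1 library. In 13 of the 23 receptor genes with reads, 1 library held more than 50% of them. For the 6 receptors with 10 to 40 reads the median share of the leading library was 62.7% (from 36.4% to 100%). It was 42.1% for 1556 genes of the table in that range of reads. For the 8 receptors with 40 to 200 reads the median was 34.1%, against 28.6% for 1226 genes. Over all genes the share was thus larger where reads were fewer. Reads were not matched within a range, and in the lower range all receptors but Gpr119 (24 reads) had only 10 to 14 reads. The leading receptor also changed between libraries: Gpr183 in NEO 1, NEO 5, SENS 2 and SENS 5, Gpr82 in NEO 2, Gpr20 in NEO 4, Gpr55 in NEO 6, Gpr63 in SENS 1, Gpr141 in SENS 3, Gpr65 in SENS 4 and Gpr160 in SENS 6.

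In RefSeq, 9 of the 27 receptor genes (33.3%) overlap the span of another coding gene, against 506 of 3636 coding genes of the table (13.9%). Among them, Gpr183 and Gpr18 lie within Ubac2 and Gpr82 within Cask. Adgrf2 and Adgrf4 overlap each other, Gpr152 overlaps Cabp4, Gpr142 overlaps Btbd17 and Gpr39 overlaps Lypd1. Gpr183 and Gpr18 are on the − strand and Ubac2 on the + strand. These overlaps are of whole gene spans, and exons were not compared. The labels do not say that reads were counted by strand. Where exons overlap, reads from either gene could therefore not be told apart. The 9 overlapping receptors had a median of 10 reads and the 18 others 8.5.

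Few partners of these receptors had a row in the table, and none passed. Of the G protein subunit genes it held Gnat1, the rod transducin, and Gng8. Gng8, a γ subunit, had 9 NEO reads in 3 libraries and 39 SENS reads in all 6 (157 ± 184 and 438 ± 391 CPM; SD, n = 6 each), with a log2 fold change of 4.15 (SE 2.17, limma adjusted p = 0.745). It held 5 genes of the Rgs name, regulators that shorten G protein signals and their relatives, with 2 log2 fold changes above 0 and 3 below. Rgs1, known from lymphocytes, had 57 NEO and 42 SENS reads. The rod kinase gene Grk1, the cone arrestin gene Arr3 and Adcy10, a soluble adenylyl cyclase, made up the rest.

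Related receptors outside the naming rule numbered 22 in the table. Of the 21 tested, 0 passed, 12 had a log2 fold change above 0 and 9 below, against 57.0% above 0 among all genes. An unadjusted p under 0.05 was found for 2 of them, Mc5r and Gprc5d, against 3.68% of all genes. Mc5r, a receptor for melanocortin peptides such as those cut from POMC, had 6 NEO reads in 2 libraries and 97 SENS reads in 5. Its means were 119 ± 188 and 1247 ± 824 CPM (SD, n = 6 each), with a limma log2 fold change of 5.83 (SE 2.42, adjusted p = 0.745). Gprc5d, an orphan receptor of hair follicles and plasma cells, had 917 ± 398 and 448 ± 660 CPM (SD, n = 6 each), with a limma log2 fold change of −3.77 (SE 1.49, adjusted p = 0.745).

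Immune cell markers were in the table beside the immune receptors. Of 12 lymphocyte markers, which include Gpr174, Gpr183 and Gpr18, the table held 11. Of their B cell genes, Ms4a1 was at 0, while Cd79a had 8.5 NEO and 29 SENS reads. These lay in 3 libraries of each group, with 23 reads in SENS 2. The summed CPM of the 11 markers ran from 1538 to 4275 in NEO and from 1913 to 5810.2 in SENS. Most of their 120.5 NEO and 292 SENS reads were of Ptprc (22 and 107), Cd52 (37 and 78) and the receptor gene Gpr183 (36 and 58). The T cell genes Cd3e, Cd3g, Cd4 and Cd8a had only 0 to 6 reads each per group. Of the 10 lymphocyte markers tested, 6 had a log2 fold change above 0 and 4 below (median 0.13), and none passed. Of 12 microglia and macrophage markers the table held Cd163, Ms4a7 and Siglec1, with a summed CPM from 97.7 to 1015 in NEO and from 464 to 2324 in SENS. Of 6 mast cell and granulocyte markers it held 4, with Tpsb2 at 0 and a summed CPM from 0 to 1526 in NEO and from 166 to 1604 in SENS. Of 7 pituitary markers it held 6, from 380 to 2797 CPM in NEO and from 64.1 to 9796 in SENS, where SENS 4 was also highest for Gpr65. Of 4 blood markers it held Hba-a1 and Slc4a1, with 3 reads in NEO and none in SENS. Their part in the receptor values was not tested. Markers of AGRP neurons, endothelium, astrocytes, oligodendrocytes, ependyma and meninges had no row in the table used.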

How the data were processed

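The authors deposited 1 table of CPM values for 12 libraries, 6 NEO and 6 SENS, all used. Per the submitters' processing notes, which give neither versions nor roles, the tools were FastQC, HISAT2, featureCounts and edgeR, and the builds GRCm38 and mm10. How genes were chosen for the table, whether counting used strand and how multi-mapping reads were handled is not given in the sources used here. The most frequent value above 0 of each column was taken as 1 read. Of the values above 0, 81.2% were then whole reads (tolerance 0.005), too few for a count model. Each column summed to between 999936 and 1000000 CPM.

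The members and lists were chosen with earlier results of these data known. SENS was compared with NEO over all genes averaging 1 CPM or more by limma 3.58.1 (R 4.3.3) on log2(CPM + 1), with a variance trend, no covariate, two-sided tests and Benjamini-Hochberg adjustment over 5141 genes (threshold 0.05). Fold changes on this scale depend strongly on the pseudocount where a library is at 0. An exact permutation test of mean CPM over all 924 regroupings was an alternative. The smallest p it can give is 0.0022. After adjustment over 5141 genes it could therefore call genes only where a great many came near that value. Sums and counts over the members got no test. Intervals are exact (95%) and cover counting error only.

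Genes were named by a rule: all adhesion genes, the 10 with the highest mean CPM, the 6 per direction with the smallest unadjusted p, those above 0 in at least 10 libraries, and those at 0 everywhere. The remaining members are given by reads, except for 1 item that is not reported here. Gene names and positions are from RefSeq (GRCm38.p6).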

Additional observations from a re-analysis of the deposited data

Results flagged for a closer look

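Values are listed where the highest library of a group of 6 lay far from the other 5 (gap to the nearest over the range above Dixon's 95% value). That value marks about 1 in 20 groups by chance only where values follow a normal distribution. Counts this low, with many libraries at 0, do not, so the number marked cannot be set against that rate. With 5 libraries at 0 any single value is marked. Of 34 groups 14 were marked, 9 of them with the other 5 libraries at 0. In NEO these were Adgrf4 in NEO 1 (782 CPM), Adgrg5 in NEO 2 (1077 CPM) and Adgrg4 in NEO 5 (145 CPM) with the others at 0, and Gpr82 in NEO 2 (1616 CPM), Gpr160 in NEO 6 (2066 CPM) and Gpr65 in NEO 6 (387 CPM). In SENS they were Adgrf4 (166 CPM), Adgrf2 (83.1 CPM) and Adgrg7 (83.1 CPM) in SENS 5, Gpr152 in SENS 4 (466 CPM), and Gpr142 (449.8 CPM) and Gpr141 (1049.6 CPM) in SENS 3, all with the others at 0. Gpr65 in SENS 4 (2794 CPM) and Gpr82 in SENS 6 (1093 CPM) completed them. Neither the summed CPM of the receptors nor the number above 0 was marked, with NEO 3 at 0 for both.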

How the results depend on the processing

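No gene of the table was called in any of the 25 alternatives: other pseudocounts (0.1 to 200), no filter or a mean of at least 100 or 200 CPM, no variance trend, quantile scaling, a block for label range or replicate number, each library left out in turn (0 to 0), and the exact permutation test. At an unadjusted p under 0.05 there were between 101 and 249 genes, among them 1 receptor in 1 setting, without SENS 6. The smallest adjusted p of a named receptor was 0.682. Of 16 named receptors with more than 3 reads in a group, 8 kept their sign in every alternative run. Among these, Adgrg5, Gpr132, Gpr141 and Gpr142 had reads in 1 group only. Leaving out a library or changing the pseudocount could not turn their sign, so their stability shows nothing. For Adgrg5, Gpr141 and Gpr142 the run without their only library with reads gave no value. The sign turned in 24 of 384 values, and the cause was not tested. Gpr35 turned with quantile scaling (0.31) and without NEO 2 (1.11), NEO 5 (0.45), NEO 6 (1.02), SENS 3 (0.85), SENS 4 (0.85) or SENS 6 (0.85). Gpr63 turned without NEO 1 (0.16), NEO 2 (0.09), NEO 4 (0.18), NEO 5 (0.08), NEO 6 (0.39) or SENS 3 (1.39), Gpr183 without NEO 3 (−1.14), SENS 2 (−0.08) or SENS 5 (−0.03), Adgrf4 without NEO 1 (1.23), and Gpr152 without NEO 2 (0.040) or with a pseudocount of 200 (0.0040). As differences of mean CPM, SENS minus NEO, Gpr63 (110.2 CPM), Gpr152 (23.5 CPM), Gpr160 (191 CPM), Gpr82 (−24.8 CPM) and Gpr55 (−19.8 CPM) had the opposite sign. The lowest and highest log2 fold changes with 1 library left out were −1.60 (without SENS 5) and 1.23 for Adgrf4, −1.04 (without SENS 1) and 1.11 for Gpr35, −1.68 (without NEO 3) and 1.39 for Gpr63, −2.45 (without SENS 4) and 0.040 for Gpr152, and −1.14 and 1.99 (without SENS 4) for Gpr183. Leaving out 1 library moved the value over 1.5 times, with no turn of sign, for others too, given here at their extremes: Adgrf2 (−3.05 to −0.72), Gpr160 (−3.07 to −0.35), Gpr82 (0.27 without SENS 6 to 2.98 without NEO 2), Gpr132 (1.37 without SENS 2), Gpr119 (−1.56 without NEO 1), Gpr55 (1.67 without NEO 1 to 4.18 without SENS 6) and Gpr65 (2.20 without SENS 4). Likewise, the difference in summed CPM lay between −281 (without NEO 3) and 1346 (without NEO 6), and that in receptors above 0 between 0.333 (without NEO 3) and 2.53 (without NEO 2). A pseudocount of 200 moved the median over all genes from 0.39 to 0.05 and that of the receptors from 0.77 to 0.08. The receptor median was −0.026 without SENS 5. Among genes averaging 100 CPM or more it was 0.16. The replicate numbers did not pair the libraries: same-numbered libraries correlated between −0.03 and 0.08 in their deviations, and 2 of 12 correlated best with their own number. With the replicate block the count of genes called was 0. In a library, a 0 allows up to 3 reads. The median SE among the receptors was 1.77.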
